A study of Mus musculus with 9 samples.

Results

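Translation factors were followed by name by RNA sequencing in mouse embryonic stem (ES) cells, a cultured cell type that can give rise to the tissues of the embryo. The members were every gene whose name begins with Eif (eukaryotic initiation factor) or Eef (eukaryotic elongation factor) and a digit, without names marked as pseudogenes. They numbered 63 of the 13499 genes in the table, 55 with Eif names and 8 with Eef names, and 1 pseudogene name was left out. The cells, of strain C57BL/6 per the labels, grew on gelatine-coated plates in 2xLIF SR-ES medium, and a cytometer separated them by fluorescence of GFP-Myc or EYFP. All 3 populations, High, Medium and Low in Myc, had the same strain and culture, and each had 3 libraries of total RNA described as biological replicas. The labels do not give the reporter used for each library, the number of clones, or what a shared replicate number stands for, so the p-values measure the spread between these libraries.

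Initiation factors bring the small ribosomal subunit, the initiator tRNA and the mRNA cap together and place the ribosome at the start codon. Elongation factors then deliver aminoacyl-tRNAs and move the ribosome along the coding sequence. Initiation is the step at which much of the known control of translation acts, through phosphorylation of eIF2 and through 4E-BP proteins that hold the cap-binding protein eIF4E. Myc is a transcription factor that binds DNA with its partner Max, with a preference for the E-box CACGTG, and genes of ribosomes and translation are among its known targets in proliferating cells.

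The roles of the members were unequal in number. The group that loads the initiator tRNA and selects the start codon held 13 members, eIF2B, the nucleotide exchange factor of eIF2, held 5, and the scaffold complex eIF3 held 14. The eIF4 group, which binds the cap and unwinds the leader, held 11, and 4 other Eif names belonged to the exon junction complex (Eif4a3), to elongation and termination (Eif5a and Eif5a2) or to the large subunit (Eif6). Another 9 members were kinases, binding proteins and other regulators, and 7 were grouped as elongation factors by name, including Eef1e1 of the multisynthetase complex. The 8 Eef names were those 7 and Eef2k, the kinase that phosphorylates eEF2.

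Because Myc binds the E-box, the promoters of the members were searched for CACGTG, which is its own reverse complement, in RefSeq windows from 250 bases before to 50 bases after the transcript start (build GRCm38.p6). Windows were matched for 49 of the 63 members, and 12 of these 49 genes (24.5%) held the motif, beside 11.9% of the 9765 measured genes with a window. Of the Eif genes 10 of 43 held it, and of the Eef genes 2 of 6. Both Eef genes with the motif were Eef2 and its kinase Eef2k. Of the 6 matched members that differed between High and Low (below the adjusted p of 0.05, values given further on), 2 held it, Eif5a2 and Eif1b, and both were lower in High. The stretches below are shown because they set a member with the motif that was higher in mean signal in High (Eif4g1), a member without it that rose (Eif2b5), the pair with it that fell (Eif1b, Eif5a2) and an elongation factor with it that did not pass the test (Eef2) side by side. All are on the plus strand, 5′ to 3′, from chr16:20672643-20672702, chr16:20498733-20498792, chr9:120492570-120492599, chr3:28781117-28781176 and chr10:81176547-81176606 in that order, and capitals mark CACGTG.
Eif4g1: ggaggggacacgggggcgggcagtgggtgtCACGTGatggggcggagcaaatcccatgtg
Eif2b5: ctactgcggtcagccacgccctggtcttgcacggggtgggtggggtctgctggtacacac
Eif1b: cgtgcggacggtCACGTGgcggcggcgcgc
Eif5a2: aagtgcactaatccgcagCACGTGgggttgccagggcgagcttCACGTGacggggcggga
Eef2: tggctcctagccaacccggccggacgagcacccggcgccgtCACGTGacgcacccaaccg
Relative to the annotated start of its own window, the motif lay at -54 and 16 in Eif4g1, at -24 in Eif1b, at -142 and -117 in Eif5a2 and at -43 in Eef2. The 49 genes had 64 windows, as a gene can have several starts. The positions in Eif4g1 may therefore be the same site seen from different starts, which was not resolved. A match describes these letters only, and binding was not measured.

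Expression is given as normalized signal, which is the deposited gene count scaled per library to totals of 953055 to 1026948, so that higher and lower are relative to the rest of the same library. Between 11114936 and 16755566 reads were assigned to genes per library. Myc itself was 26.3, 27.6 and 24.2 in the Low libraries, 70, 65.5 and 65.8 in Medium and 112, 101 and 106 in High, in the order of the labels. The ES cell marker list was measured for 10 of 10 genes, with summed signals of 5159 to 6702 in Low, 6016 to 6656 in Medium and 6352 to 7137 in High. Of these, 4 were higher in High than in Low (Zfp42, Esrrb, Tdgf1 and Fgf4) and 0 were lower, at an adjusted p under 0.05 in limma. Over all genes tested, 13.8% were higher and 14.6% lower by that rule, which is the share to set beside each marker list here. Markers of 2 other lineages moved with the populations. The trophoblast list (9 of 13 genes in the table, without Cdx2, Elf5, Hand1 and Tpbpa) summed to 482 to 590 in Low, 227 to 247 in Medium and 137 to 145 in High, and 8 of the 9 were lower in High than in Low. The primitive endoderm list (5 of 10 genes in the table, without Gata6, Gata4, Sox17, Pdgfra and Foxa2) summed to 251 to 260, 405 to 421 and 503 to 521, with 4 genes higher and 1 lower in High. The fibroblast list (7 of 8 genes, without Lum) summed to 32.6 to 46.9 in Low, 43.2 to 67.5 in Medium and 32.5 to 47.5 in High. Of the 7, 1 was higher in High than in Low (Thy1) and 0 were lower. The part of other cell types in the differences below was not tested, and in bulk RNA fewer cells of a type and less RNA per cell cannot be told apart. Low replicates 2 and 3 had less signal from long relative to short transcripts than every other library, and in replicate 1 of each population long transcripts lay above short ones on that measure, with values given after the comparisons.

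High against Low asked whether translation factor mRNAs follow the Myc level. Of the 63 members, 8 differed at an adjusted p under 0.05 (limma, adjusted over all genes), 4 higher in High (Eif2b5, Eif1a, Eif3j1 and Eif4b) and 4 lower (Eif4e3, Eif4g3, Eif5a2 and Eif1b). That is 12.7% of the members, beside 28.4% of all genes tested in this comparison (13.8% higher and 14.6% lower). At an unadjusted p under 0.05 there were 12 members, and 40.5% of all genes. The median log2 fold change of the 63 members was 0.02, beside 0.00 over all genes, with 38 estimates above and 25 below 0. All 8 were Eif genes, and none of the 8 Eef genes passed. The count of 8 rested on which libraries were in the fit: it was 21 without Low replicate 1 (43.1% of all genes), 4 without Low replicate 3 (17%), 5 without High replicate 1 (19%), 3 without High replicate 2 (18.6%) and 3 without High replicate 3 (19.5%). It was 12 with the replicate number as a block (38.8% of all genes) and 17 after a correction for transcript length (39.3% of all genes). On the recovered reads edgeR called 7 members (27.2% of all genes) and DESeq2 called 12 (28.7%). Scaling also moved the split, which was 1 higher and 4 lower with quantile normalization (26.6% of all genes called) and 3 higher and 6 lower with equal library totals (27.4%). All High libraries lay above all Low libraries for 11 members and below them for 5, beside 20.2% and 21.4% of all genes.

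**Figure D1:**
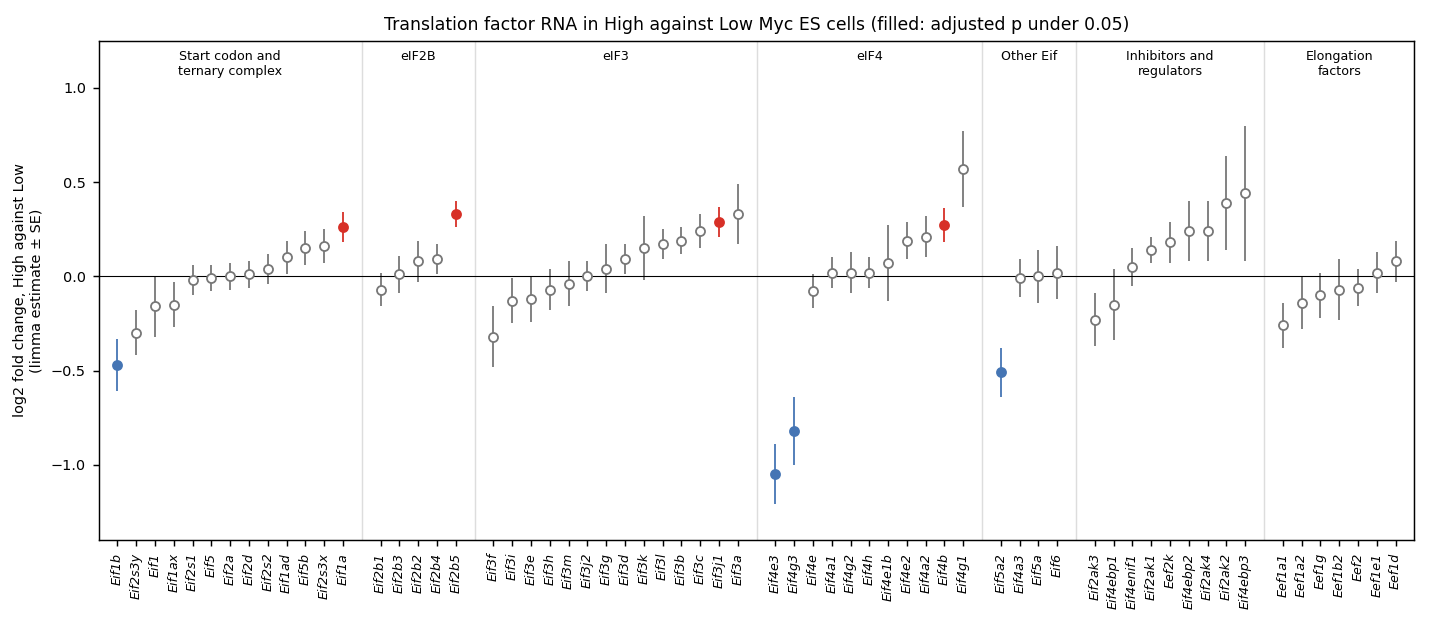
Log2 fold change of High against Low for the 63 members, grouped by role, with limma's standard error as bars and filled points for the 8 members with an adjusted p under 0.05. The estimates run from -1.05 (Eif4e3) to 0.57 (Eif4g1), and the 55 open points did not pass.

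Among the factors of the start codon and ternary complex, 1 of 13 rose (Eif1a) and 1 fell (Eif1b), or 15.4%, beside 28.4% of all genes. The median log2 fold change was 0.00. Eif1a encodes eIF1A, which helps the scanning small subunit reach the start codon. Its signal was 229, 266 and 256 in Low, 286, 280 and 275 in Medium and 285, 309 and 302 in High. Every High and Medium library was above every Low library. High against Low gave a log2 fold change of 0.26 (SE 0.08, adjusted p = 0.0368 in limma). The call was lost without any High library (adjusted p = 0.0593 without High replicate 1, 0.128 without replicate 2 and 0.109 without replicate 3). It was lost too without Low replicate 3 (0.0871), Medium replicate 2 (0.0562) or Medium replicate 3 (0.0599), with quantile normalization (0.172) and without the variance trend (0.0592).

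Eif1b is a paralog of Eif1, the factor that guards against starting at a wrong codon. The Eif1b signal was 21.2, 28.9 and 25.8 in Low, 20.6, 23.2 and 18 in Medium and 16, 18.8 and 18.7 in High. High lay below Low with no overlap, and Medium overlapped both. On the log2 scale it fell by 0.47 (SE 0.14, adjusted p = 0.0289), and the call was lost without Low replicate 2 (0.0859), Low replicate 3 (0.0952), or High replicate 1 (0.104), 2 (0.0589) or 3 (0.0604). An antisense gene, D830035M03Rik, overlaps 12.7% of the exon bases of Eif1b, and without the strand of counting, which is not given in the sources used here, reads of the pair cannot be told apart. Eif1 itself ranged from 435 to 726 in Low and 482 to 535 in High, with a log2 fold change of -0.16 (adjusted p = 0.493). Without Low replicate 1 its estimate was -0.35 and passed (0.0149), and without Low replicate 2 it was 0.01.

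The subunits of eIF2, which carries the initiator tRNA, gave no call. The log2 fold change of the alpha subunit gene Eif2s1 was -0.02 (adjusted p = 0.854), that of the beta subunit gene Eif2s2 was 0.04 (0.726), and that of the X-linked gamma subunit gene Eif2s3x was 0.16 (0.218). Eif2s3y, the Y-linked copy of the gamma subunit, was 15.8, 20.8 and 20.5 in Low, 17.8, 16.4 and 17.2 in Medium and 15.2, 14 and 16.3 in High. Its groups overlapped through Low replicate 1, and its log2 fold change of -0.30 had an adjusted p of 0.0889, which passed the threshold with equal library totals and without Low replicate 1. Eif5, the GTPase activator of eIF2, stayed between 408 and 444 in all libraries. Eif5b, which joins the large subunit, was 229 to 235 in Low and 255 to 260 in High, without overlap but with an adjusted p of 0.254.

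Of the eIF2B subunits, 1 of 5 rose (20%, beside 28.4% of all genes called in either direction). It was Eif2b5 (chr16:20498817-20509323, plus strand, GRCm38), which encodes the epsilon subunit that carries the exchange activity on eIF2. Its signal was 161, 164 and 167 in Low, 201, 203 and 191 in Medium and 204, 211 and 203 in High. Every Medium and High library lay above every Low library, and High and Medium overlapped. High was 1.26 times Low, with a log2 fold change of 0.33 (SE 0.07, adjusted p = 0.00552 in limma), and the call held in all 9 fits that each left out a library. The other subunits (Eif2b1 to Eif2b4) had log2 fold changes from -0.07 to 0.09, with adjusted p from 0.442 to 0.944.

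In eIF3, the large complex that links the small subunit to eIF4G, 1 of 14 rose and none fell (7.14%, beside 28.4% of all genes). The median log2 fold change was 0.06. The gene that rose was Eif3j1, from a pair of mouse genes for the loosely attached j subunit. Its signal was 37.3, 39 and 35.8 in Low, 44, 42.4 and 40.2 in Medium and 43.2, 45.6 and 48.4 in High. Low lay below both other populations, which overlapped. High exceeded Low by a log2 fold change of 0.29 (SE 0.08, adjusted p = 0.0267), and it was lost without Low replicate 3 (0.107), High replicate 2 (0.0779) or High replicate 3 (0.106), with quantile normalization (0.0579), and with length corrected without the block (0.225) and with it (0.121). In the annotation Spg11 on the opposite strand overlaps 19% of the exon bases of Eif3j1. Its paralog Eif3j2 had a log2 fold change of 0.00 (adjusted p = 0.982).

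Of the eIF3 genes that did not pass, Eif3a, Eif3b and Eif3c had the highest estimates. Over the 14 genes of the complex, 9 estimates were above and 5 below 0. Eif3b was 508, 488 and 496 in Low, 581, 549 and 550 in Medium and 572, 576 and 554 in High, with Low below the other populations. Its log2 fold change was 0.19 with an adjusted p of 0.0675, or 0.0412 with the replicate number as a block. Eif3c, at 443 to 517 in Low, 560 to 642 in Medium and 549 to 592 in High, had 0.24 and an adjusted p of 0.0685, or 0.0257 with the block. Eif3a was 726, 455 and 551 in Low and 776, 691 and 677 in High, and the groups overlapped because of Low replicate 1. Its log2 fold change of 0.33 had an adjusted p of 0.159, or 0.023 with the block. Without Low replicate 1 all 3 passed, at 0.0381 for Eif3b, 0.0226 for Eif3c and 0.00861 for Eif3a, whose estimate was then 0.51. Eif3f had the lowest estimate of the complex. It was 230, 394 and 321 in Low and 230, 259 and 252 in High, with a log2 fold change of -0.32 (adjusted p = 0.174). That estimate was -0.53 and passed without Low replicate 1 (0.00215), and it was -0.14 without Low replicate 2. With transcript length corrected, the median of the complex was 0.16 and 6 of the 14 passed, all higher (Eif3b, Eif3c, Eif3d, Eif3g, Eif3k and Eif3l), beside 39.3% of all genes called in that fit in either direction.

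In the eIF4 group 1 of 11 rose and 2 fell (27.3%, beside 28.4% of all genes), and the 3 genes differed in level. Eif4b encodes a cofactor of the helicase eIF4A and belongs to the mRNAs with a 5′ terminal oligopyrimidine tract, a signature of translation genes controlled by mTOR. Its signal was 731, 590 and 656 in Low, 801, 777 and 801 in Medium and 814, 786 and 775 in High. Every Low library was below every other library. High exceeded Low by 0.27 on the log2 scale (SE 0.09, adjusted p = 0.0488). The call was kept without Low replicate 1 (0.00538) and lost in each of the other 8 fits without a library, at 0.0627 to 0.142, and in edgeR at 0.0528. It was lost too with quantile normalization (0.13), equal library totals, a pseudocount of 4 CPM and no variance trend. The 9 members on the oligopyrimidine list had a median log2 fold change of -0.07, with 1 call, Eif4b (11.1%, beside 28.4% of all genes).

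Eif4e3 (chr6:99625135-99666771, minus strand, GRCm38) encodes a divergent cap-binding relative of eIF4E. Its signal was 3.52, 5.19 and 3.98 in Low, 2.3, 1.98 and 2.04 in Medium and 1.19, 1.87 and 1.45 in High, which came from 18 to 58 reads per library. The 3 populations did not overlap and were ordered Low, Medium, High from the top. Low was 2.82 times High, and the log2 fold change on the log2(signal + 1) scale was -1.05 (SE 0.16, adjusted p = 0.00131), which held in all 9 fits without a library. On the same strand the gene model Gm20696, which is not a row of the table, covers 14.8% of its exon bases. Eif4e, the main cap-binding protein, stayed between 189 and 232, with a log2 fold change of -0.08 (adjusted p = 0.522).

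Eif4g3 encodes a form of eIF4G, the scaffold that joins the cap-binding protein, the helicase and eIF3. It lies at chr4:137993022-138208508 on the plus strand (GRCm38). Its signal was 142, 77.8 and 93.8 in Low, 91.4, 78.2 and 85.9 in Medium and 62.1, 53.8 and 54.5 in High. Every High library was below every Low and every Medium library, while Medium and Low overlapped. Low was 1.84 times High, with a log2 fold change of -0.82 (SE 0.18, adjusted p = 0.00914 in limma), and the call held in all 9 fits without a library. The estimate was -0.58 when Low replicate 1, the highest library, was left out, and -1.05 with length corrected.

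Eif4g1, the more abundant form, went the other way in its estimate. Its signal was 966, 489 and 652 in Low, 1119, 924 and 1012 in Medium and 1077, 979 and 951 in High. Low replicates 2 and 3 lay below every other library, and Low replicate 1 lay within the range of High. High exceeded Low by 0.57 on the log2 scale (SE 0.20). The adjusted p was 0.0643 in limma, 0.0133 with the replicate block, 0.0118 when length was corrected and 0.000819 when Low replicate 1 was left out. It was 0.0486 in DESeq2, but 0.0929 in edgeR and 0.12 with quantile normalization. Of the 9 fits without a library, it passed in 1, and the highest adjusted p among them was 0.17. Eif4g2, a related protein without the cap-binding contact, had a log2 fold change of 0.02 (adjusted p = 0.898).

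**Figure D2:**
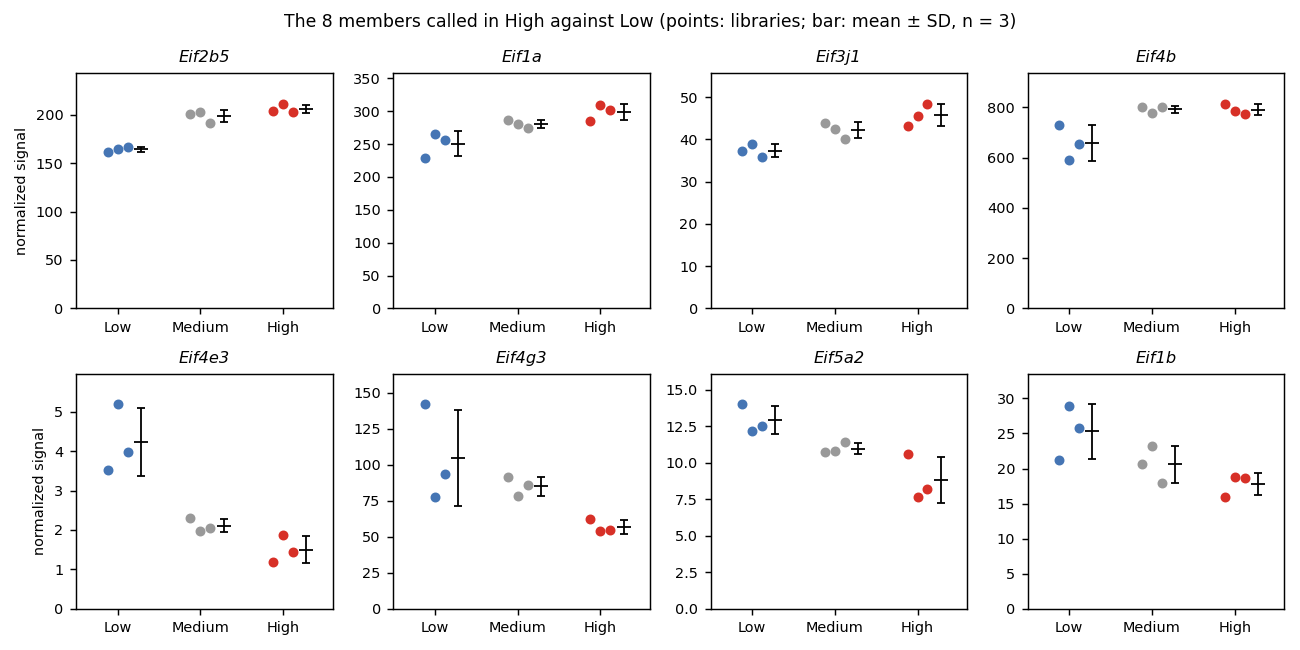
Normalized signal of the 8 members with an adjusted p under 0.05 in High against Low, by population (points are libraries, bars are mean and SD, n = 3). High and Low do not overlap in any of the 8, and the Low libraries of Eif4g3 run from 77.8 to 142.

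Among the other Eif names, Eif5a2 fell. It encodes a tissue-restricted paralog of eIF5A, a hypusine-bearing factor that acts in elongation and termination despite its name. Its signal was 14, 12.2 and 12.5 in Low, 10.7, 10.8 and 11.4 in Medium and 10.6, 7.65 and 8.21 in High. The populations did not overlap, although Medium and High met at 10.7 and 10.6. Its log2 fold change was -0.51 (SE 0.13, adjusted p = 0.0156), and it was lost without High replicate 2 (0.0641) or High replicate 3 (0.0591). Eif5a itself had a log2 fold change of 0.00 (adjusted p = 0.991), with 1242 to 1712 in Low and 1339 to 1614 in High. Eif6, which keeps the large subunit apart from the small, and Eif4a3, of the exon junction complex, had estimates of 0.02 and -0.01.

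None of the 9 kinases, binding proteins and other regulators among the members passed in limma with all 9 libraries, and none did at an unadjusted p under 0.05, in edgeR or in DESeq2. The kinases that phosphorylate eIF2 under stress had estimates of 0.14 for Eif2ak1 (adjusted p = 0.152), 0.39 for Eif2ak2 (0.274), -0.23 for Eif2ak3 (0.253) and 0.24 for Eif2ak4 (0.315). Eif2ak2, the kinase activated by double-stranded RNA, was 18.8, 7.16 and 11 in Low, 16.6, 18.1 and 18.3 in Medium and 15.1, 15.8 and 15.1 in High. Low replicate 1 was its highest library and Low replicate 2 its lowest. Eif4ebp1, which holds eIF4E away from eIF4G, was 271, 450 and 379 in Low and 269, 340 and 372 in High, with a log2 fold change of -0.15 (adjusted p = 0.608). Its relative Eif4ebp2 was 127, 77.3 and 103 in Low and 133, 114 and 111 in High, with 0.24 (0.3). Low replicates 1 and 2 were the 2 extremes of the Low group for all 3 of these genes. Without Low replicate 1, limma called Eif2ak2 (0.72, adjusted p = 0.00378), Eif2ak4 (0.40, 0.0365) and Eif4ebp2 (0.41, 0.03) higher in High, and the estimate of Eif4ebp1 was -0.35 (0.088). Without Low replicate 2 the estimates of these 4 genes were 0.09, 0.05, 0.06 and 0.02. With length corrected, Eif2ak3 passed as lower in High (-0.29, adjusted p = 0.0365). Eif4ebp3, at 5 to 43 reads per library, shares 67.3% of its exon bases with a gene model on the same strand, so its adjusted p of 0.404 concerns an uncertain count.

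The 4 members that fell in High each had a paralog with a higher signal, so the ratio of the paralogs within a library was computed. This ratio does not depend on the scaling of the library, but it was not corrected for transcript length. Lengths differ within the pairs: 5638 and 8134 nt for Eif4g1 and Eif4g3, and 4991 and 2515 nt for Eif4e and Eif4e3. They are 1322 and 1035 nt for Eif1 and Eif1b, and 1437 and 5027 nt for Eif5a and Eif5a2. These pairs were picked after the values were seen, so the ratios are a description with no test. Eif4g1 over Eif4g3 was 6.82, 6.29 and 6.96 in Low, 12.2, 11.8 and 11.8 in Medium and 17.3, 18.2 and 17.4 in High. The 3 populations were well separated, and Low replicate 1, which stood high for both genes, lay beside its group. The means were 6.69 ± 0.353, 11.9 ± 0.255 and 17.7 ± 0.475 (SD, n = 3), a 2.64-fold difference between High and Low. Eif4e over Eif4e3 was 51.6 ± 6.07, 96.3 ± 7.12 and 139 ± 27.3, with no overlap of High and Low. Eif1 over Eif1b was 22.9 ± 2.3, 23.9 ± 2.26 and 28.9 ± 1.12, and only High stood apart from both other populations. Eif5a over Eif5a2 was 118 ± 26.7, 129 ± 14.9 and 175 ± 42.3, and High and Low overlapped through High replicate 1.

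**Figure D3:**
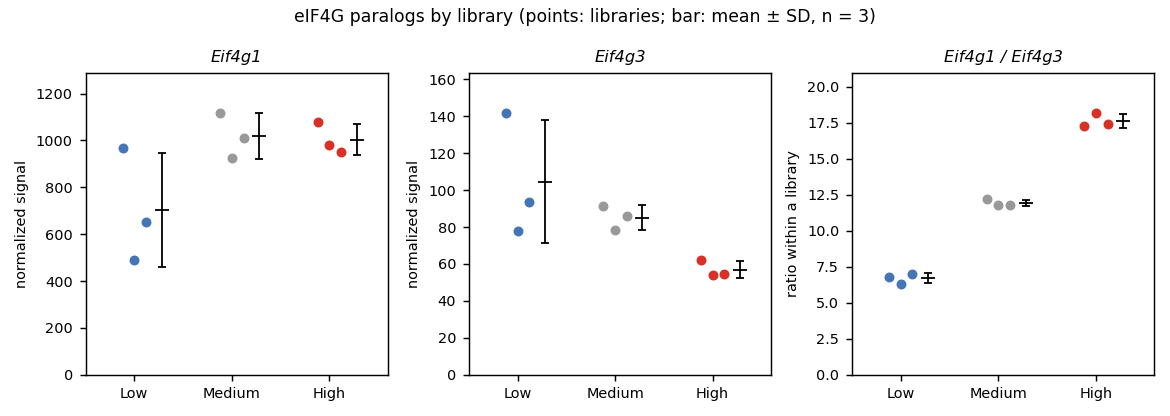
Signal of Eif4g1 and of Eif4g3, and Eif4g1 divided by Eif4g3, in each library by population (points are libraries, bars are mean and SD, n = 3). Low replicate 1 is high for both genes, while the ratio is 6.29 to 6.96 in Low, 11.8 to 12.2 in Medium and 17.3 to 18.2 in High.

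Elongation factors were the second class. Per kilobase of transcript, so that genes can be compared, the mean signal over the 9 libraries was 5669 for Eef1a1, 1049 for Eef2, 926 for Eef1g and 698 for Eef1b2. The highest Eif names on this scale were Eif5a at 1024 and Eif4a1 at 974, and the lowest members were Eif4e1b at 0.43, Eef1a2 at 0.492 and Eif4e3 at 1.04. Eef1a1 delivers aminoacyl-tRNA to the ribosome, Eef1b2, Eef1d and Eef1g form its exchange factor, and Eef2 moves the ribosome by a codon. None of the 8 Eef members passed in High against Low in limma, and 0 of 8 had an unadjusted p under 0.05. On the recovered reads edgeR called 0 and DESeq2 called 1, Eef1a1. The median log2 fold change was -0.07 for the 8 Eef members and 0.02 for the 55 Eif members. Of the 55, 8 passed in limma (14.5%), beside 28.4% of all genes. Estimates were above 0 for 3 of 8 Eef members and 35 of 55 Eif members. With 8 members, the difference between the classes in the share called was not tested.

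Eef1a1 was 10166, 11910 and 11510 in Low, 10612, 9843 and 9527 in Medium and 9082, 9587 and 9287 in High. Every High library was below every Low library, and Medium overlapped both. Its log2 fold change was -0.26 (SE 0.12) with an adjusted p of 0.131 in limma, 0.0398 with equal library totals, 0.0181 in DESeq2 and 0.0427 without Low replicate 1. It did not pass with the replicate block (0.128), with length corrected (0.113) or in edgeR (0.0632). Of the 9 fits without a library, it passed in 1. Quantile normalization gives a log2 fold change of 0.00, since a gene at the top rank of every library is assigned the same value. Eef1a1 has many processed copies in the genome, so its count is uncertain to the extent that reads were shared among them.

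The other elongation factors overlapped between High and Low. Eef2 was 3501, 2977 and 3354 in Low, 3379, 3219 and 3332 in Medium and 3185, 3158 and 3069 in High, with a log2 fold change of -0.06 (adjusted p = 0.686). Eef1g was 1539, 2062 and 1872 in Low and 1600, 1763 and 1718 in High (-0.10, adjusted p = 0.567). Low replicate 1 was the lowest of its group for Eef1g, and also for Eef1b2 and Eef1d. Eef1b2 was 1125, 1704 and 1494 in Low and 1176, 1468 and 1429 in High (-0.07, adjusted p = 0.78). Eef1d was 307, 411 and 371 in Low and 357, 391 and 400 in High (0.08, adjusted p = 0.619). Eef1e1, which belongs to the multisynthetase complex, had 0.02 (adjusted p = 0.903). Eef1a2, the form of muscle and neurons, was represented by 10 to 18 reads per library, and Eef2k was 12.7 to 18 with a log2 fold change of 0.18 (adjusted p = 0.278).

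Summed over members, the elongation factors took 1.84% ± 0.07 of the library signal in Low, 1.67% ± 0.0286 in Medium and 1.58% ± 0.045 in High (SD, n = 3). The initiation class took 1.72% ± 0.0163, 1.78% ± 0.0291 and 1.76% ± 0.0314. The summed Eef signal divided by the summed Eif signal, a ratio within each library, was 1.02, 1.1 and 1.09 in Low, 0.938, 0.941 and 0.935 in Medium and 0.887, 0.909 and 0.891 in High. The populations did not overlap. Eef1a1 alone took 1.07%, 1.16% and 1.16% of the signal in Low and 0.898%, 0.943% and 0.919% in High, and it made most of the Eef sum. Without Eef1a1 the ratio was 0.4, 0.417 and 0.42 in Low, 0.362, 0.385 and 0.38 in Medium and 0.368, 0.381 and 0.375 in High, with means of 0.412, 0.376 and 0.374. Medium and High overlapped on that measure, and Low remained above both. None of these ratios was corrected for transcript length.

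**Figure D4:**
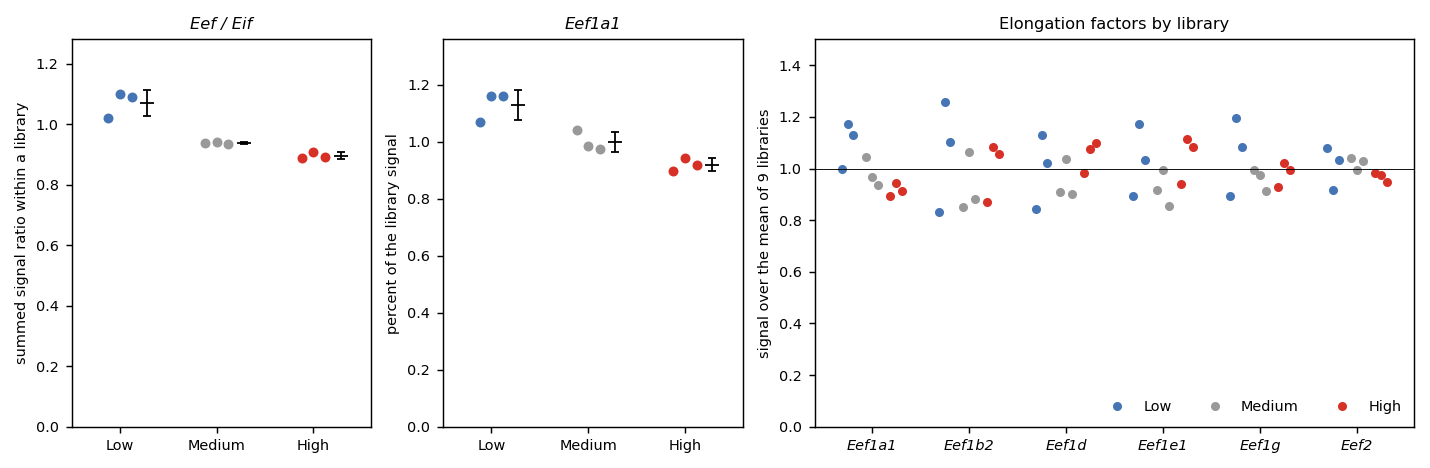
Left, summed Eef over summed Eif signal in each library; middle, Eef1a1 as percent of the library signal (points are libraries, bars are mean and SD, n = 3); right, signal of 6 elongation factors in each library over the mean of the 9 libraries. The Eef over Eif ratio is 1.02 to 1.1 in Low and 0.887 to 0.909 in High, and on the right High and Low overlap in all of the 6 but Eef1a1.

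Medium against Low shares the Low libraries with the comparison above. Of the 63 members, 2 passed (3.17%, beside 12% of all genes), Eif2b5 higher and Eif4e3 lower, and 10 members had an unadjusted p under 0.05 (31.3% of all genes). edgeR called 2 members (11% of all genes) and DESeq2 called 5 (14.9%). For Eif2b5 the log2 fold change was 0.27 (adjusted p = 0.0279), and that of Eif4e3 was -0.74 (0.0195). The Eif2b5 call was lost without Low replicate 2 (0.0558) or 3 (0.0987), without Medium replicate 1 (0.0794), 2 (0.0829) or 3 (0.0699), and without High replicate 2 (0.0558) or 3 (0.0563). The Eif4e3 call was lost without Low replicate 2 (0.06) or 3 (0.0683) and without Medium replicate 2 (0.0589) or 3 (0.0745). Without Low replicate 1 there were 16 calls (37.9% of all genes), and without Low replicate 2 or 3 or Medium replicate 2 or 3 there were 0. There was 1 call without Medium replicate 1, High replicate 2 or High replicate 3. Low and Medium did not overlap for 9 members that were higher in Medium and 3 that were lower, beside 14.5% and 15.1% of all genes. The 9 included Eif1a, Eif3b, Eif3c, Eif3j1 and Eif4b. None of the 8 Eef members passed in limma, edgeR or DESeq2 in this comparison, with 0 at an unadjusted p under 0.05, and their median log2 fold change was -0.14, beside 0.00 for the Eif members and -0.01 for all genes.

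High against Medium gave 0 calls among the 63 members in limma, beside 0.407% of all genes (55 genes), and edgeR (0.467% of all genes) and DESeq2 (1.93%) also gave 0. At an unadjusted p under 0.05 there were 2 members, and 10.9% of all genes. All High libraries lay above all Medium libraries for 5 members and below them for 6, beside 9.34% and 10.8% of all genes. The estimates ran from -0.58 to 0.22. Eif4g3 had the lowest, -0.58 (adjusted p = 0.255), and it passed when transcript length was corrected (2.5% of all genes called) and when Low replicate 1 was left out (1.56%). Eif4e3 was lower in every High than in every Medium library (-0.31, adjusted p = 0.555), as was Eif5a2 (-0.29, adjusted p = 0.441). Medium was also set against the mean of High and Low. No member passed in limma, where 0% of all genes were called, and 0 had an unadjusted p under 0.05, beside 5.67% of all genes. edgeR and DESeq2 called 0 members there too.

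The members differed among themselves in transcript length, and length moved with the libraries. For 16 members of 4000 nt or more and 21 of 2000 nt or less, the median deviation from each gene's mean (log2) was compared within each library. Long minus short was 0.29, -0.37 and -0.17 in Low replicates 1, 2 and 3, 0.22, -0.02 and 0.17 in Medium and 0.16, -0.06 and -0.03 in High. Over all genes the same measure was 0.26, -0.56 and -0.25 in Low, 0.29, -0.05 and 0.23 in Medium and 0.24, -0.05 and -0.07 in High. Low replicates 2 and 3 were the lowest of the 9 libraries on both, while Low replicate 1 lay beside Medium replicate 1 and High replicate 1. Across the 63 members, the log2 fold change of High against Low had a Spearman rho of 0.30 with length (0.21 over all genes), that of Medium against Low had 0.44 (0.41 over all genes), and that of High against Medium had -0.39 (-0.28 over all genes). Members share libraries and are not independent, so no p is given. The median coefficient of variation of the members was 11.3% in Low, 5.58% in Medium and 5.3% in High, beside 15.1%, 10.1% and 9.21% over all genes. Over genes of mean signal 10 or more, which leaves out the weakly expressed ones, it was 12.9%, 8.02% and 7.1%. Eif4g1 (5638 nt) and Eif4g3 (8134 nt) are both long and had estimates of opposite sign.

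**Figure D5:**
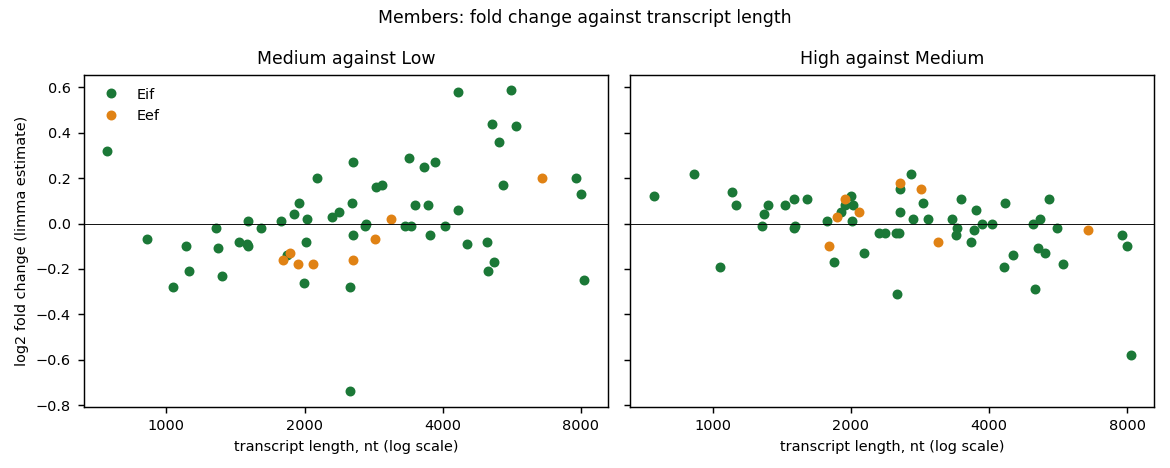
Log2 fold change of the 63 members against transcript length (log axis) for Medium against Low and High against Medium, with Eif and Eef names in different colours. Longer members lie higher in Medium against Low (rho 0.44) and lower in High against Medium (rho -0.39), and the lowest point of High against Medium is Eif4g3 at -0.58.

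Other genes of the pathway were taken from lists chosen with earlier results of these data known, and the genes that passed are named. Of 17 initiation cofactors and recycling factors, 3 rose and 2 fell in High against Low, or 29.4%, beside 28.4% of all genes. The riser with the largest estimate was Larp1, which binds oligopyrimidine mRNAs: it was 444, 297 and 335 in Low, 545, 458 and 517 in Medium and 566, 518 and 491 in High, with a log2 fold change of 0.57 (adjusted p = 0.0155). Low lay below the other populations, and the call was lost without Low replicate 3 (0.0639) or High replicate 1 (0.0591). Abcf1, an ATP-binding protein that works with eIF2, had 0.48 (0.00736), and Pabpc4, a poly(A)-binding protein, had 0.33 (0.00701). Pdcd4, an inhibitor of the helicase eIF4A, was 28.1, 28.1 and 30.7 in Low, 23.5, 21.1 and 18.9 in Medium and 17.5, 17 and 18.7 in High. Its populations did not overlap, and its log2 fold change was -0.68 (SE 0.10, adjusted p = 0.00113). Paip1, a partner of the poly(A)-binding protein, had -0.40 (0.00996). In Medium against Low the same list had 3 higher (Abcf1, Pabpc4 and Larp1) and 1 lower (Pdcd4), or 23.5% beside 12% of all genes, and each of these 4 calls was lost in some of the fits that left out a library.

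A list of 8 genes held kinases, phosphatase subunits and targets, and not all of them belong to the eIF2 stress response. Of the 8, 1 fell (12.5%, beside 28.4% of all genes), Ddit3, a transcription factor induced by the eIF2 stress response. It was 5.28, 7.6 and 8.75 in Low and 4.09, 4 and 4.02 in High, with a log2 fold change of -0.67 (adjusted p = 0.0167) that was lost without Low replicate 3 (0.0702), High replicate 2 (0.0528) or High replicate 3 (0.05). Of 10 mitochondrial translation factors, 1 rose and 1 fell, or 20% beside the same 28.4%. Tufm, the mitochondrial counterpart of the factor that delivers aminoacyl-tRNA, was 134, 163 and 148 in Low, 167, 170 and 166 in Medium and 197, 210 and 205 in High, and the 3 populations did not overlap. Its log2 fold change was 0.46 (adjusted p = 0.00295). Mtrf1l, a mitochondrial release factor, had -0.41 (0.0285), and was lost in 5 of the 9 fits without a library, at 0.0708 to 0.0904, in DESeq2 (0.067) and with quantile normalization (0.104). The 5 release and rescue factors gave 0 calls in limma, edgeR and DESeq2, with 1 at an unadjusted p under 0.05. The 3 genes for hypusine synthesis and selenocysteine gave 0 in each, with 0 at an unadjusted p under 0.05. Of 6 methyltransferases of elongation factors on the list, 0 were matched by name in the table.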

How the data were processed

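RNA was sequenced single-end at 61 nt from 9 libraries, 3 per population. The authors deposited a table of normalized gene counts (unit: signal), scaled per library to totals of 953055 to 1026948. Per the submitters' processing notes the tools were cutadapt, Picard, RSEM 1.17 and limma, with no stated role. The genome build, annotation and strand were not given in the sources used here. Each value was a whole multiple of 1 read (100% within 0.001 read), which gave the reads per library. No library total was changed before the fit.

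Signals were tested as log2(signal + 1 CPM on each library's own total) with limma 3.58.1 (R 4.3.3), a variance trend, all 9 libraries and no covariates. The filter, 1 CPM in 3 libraries, kept all 13499 genes, of which 85 have no name, and Benjamini-Hochberg adjustment ran over all of them. The fit was tested on counts simulated with the same spread in every population. For High against Low it recovered 30.3% of 1.5-fold, 92.5% of 2-fold and 98.5% of 4-fold changes. Of its 159 calls, 12 were false. A gene that did not pass may thus still differ by a small amount. Alternatives were other pseudocounts, filters and scalings, edgeR 4.0.16 and DESeq2 1.42.0 on recovered reads, the replicate block, and a length correction (lowess, span 0.3, on the longest coding transcript of GENCODE for GRCm38, found for 99.4% of genes). Any member could be named. Members and lists were chosen with earlier results of these data known. Same-numbered High and Low libraries deviated together (correlations 0.53, 0.26 and 0.18), but Medium and Low did not throughout (0.24, 0.43 and -0.11), nor did High and Medium (0.35, 0.17 and -0.04). Differently numbered libraries could too: Low replicate 2 had 0.31 with High replicate 3, above its 0.26 with High replicate 2. The correlations thus do not establish that a shared number marks a pair. No pair of libraries agreed within sampling noise. Counting error alone does not cover differences between cultures. RefSeq promoter windows were read from a table of GRCm38.p6.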

Additional observations from a re-analysis of the deposited data

How the results depend on the processing

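No named gene that passed in the main fit changed sign among the alternatives run. Genes that passed only in an alternative could change sign. In High against Low these included Eif1, Eif3g and Eif3k. In High against Low the 8 calls became 5 with quantile normalization, 12 with the replicate block, 17 with the length correction, 20 with the length correction and the block (44.8% of all genes called), and 3 to 21 when a library was left out. The block kept all 8 and added Eif3a, Eif3b, Eif3c and Eif4g1. The length correction kept 7 of the 8 and added 10. In Medium against Low the 2 calls (12% of all genes) became 1 with the 10 CPM filter, with quantile normalization and without the variance trend, 5 in DESeq2 (14.9% of all genes), 9 with the block (27.1%), 11 with the length correction (21%), 14 with both (27.7%), and 0 to 16 when a library was left out. In High against Medium the 0 calls became 1 (Eif4g3) with the length correction, 1 with that correction and the block, and 0 to 1 when a library was left out. Same-numbered libraries deviated together throughout only for High and Low, so for the other comparisons the block is given as a count alone. The cause was not tested.

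With the length correction, the median log2 fold change in High against Low went from 0.02 to 0.08 for initiation factors and from -0.07 to -0.01 for elongation factors. In Medium against Low, that of elongation factors went from -0.14 to -0.05 with the length correction and to -0.02 with quantile normalization. The ratio of summed Eef to Eif signal in Low, Medium and High was 1.11, 0.976 and 0.932 without regulators, 1.27, 1.11 and 1.07 with Eif5a and Eif5a2 counted as elongation factors, and 0.412, 0.376 and 0.374 without Eef1a1. Low kept the highest mean in each. Depth limits Eif4e3, Eif4e1b, Eef1a2 and Eif4ebp3 most, and Eif4e3 was not tested under the 10 CPM filter.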
